A study of Rattus norvegicus with 9 samples.

Results

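The genes described here are 9 that mark excitatory projection neurons of the cerebral cortex and their layers: Emx1, Cux1, Cux2, Tbr1, Bcl11b, Fezf2, Neurod6, Neurod2 and Slc17a7. They were taken by gene symbol from a table of 32623 entries, in which each has 1 entry, and all 9 passed the filter on low counts that left 16284 entries for testing. RNA came from wild-type cortical neurons of Wistar rat embryos (embryonic day 16 to 18) in 3 groups of 3 libraries. The first group received alternating current stimulation (ACS), the second received direct current stimulation (DCS, which the labels abbreviate as DES) and the third was labelled as the control group. According to the labels both currents were 3 µA and 20 min, with stimulation on 7 days and 20 Hz written for both kinds. The authors describe the stimulation times as min per day. The culture age is 7 days in vitro in the tissue field but up to 14 in the growth protocol. No source states whether the 3 libraries within a group are separate cultures, and the p-values therefore reflect the variation among these libraries alone, which may be technical. Totals were 49039412 to 52938628 estimated counts in ACS, 52370330 to 68133858 in DCS and 53910745 to 68690760 in Control libraries. The question was which transcripts differ between neurons under either current and control neurons.

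Excitatory neurons of the cortex are born from dorsal progenitors, settle in layers and use glutamate as their transmitter. Their identity is set by transcription factors, several of which hold each other in check: Fezf2 and Bcl11b direct neurons of the deep layers to project below the cortex, Tbr1 marks and specifies the deepest layer, and Cux1 and Cux2 mark the upper layers and shape their dendrites. Emx1 is a homeodomain factor of the dorsal telencephalon that stays on in its excitatory progeny. Neurod2 and Neurod6 are helix-loop-helix factors that act as these neurons differentiate, and Slc17a7 encodes the transporter VGLUT1, which fills synaptic vesicles with glutamate. These roles are known mainly from mouse.

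Under ACS 2 of the 9 genes rose over control neurons, Emx1 by 1.33-fold and Cux2 by 1.21-fold, and none fell. Of all tested genes 4.16% were called there, 2.83% as higher and 1.33% as lower. In all, 8 of the 9 fitted changes were above 0, the exception being Neurod6. Under DCS over control neurons none of the 9 passed the test, where 0.0123% of all tested genes were called. None of the 9 passed between ACS and DCS, where 0.633% were called. The changes were small, and leaving out single libraries ended both calls, as given with each gene.

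The DNA before the start of 4 of these genes is shown, those whose ACS and control values are set against each other most closely in what follows: Emx1 and Cux2, which passed the test, and the related pair Neurod2 and Neurod6, whose fitted changes had opposite signs. Each line holds the 250 bases before the start that RefSeq gives on the GRCr8 build, read 5′ to 3′ on the strand of the gene, and 8 of the 9 genes had such a window (Bcl11b had none). Emx1 is at chr4:119282442-119282691 on the plus strand, Cux2 at chr12:40179032-40179281 on the plus strand, Neurod2 at chr10:83824278-83824527 on the minus strand and Neurod6 at chr4:86180156-86180405 on the minus strand. Capitals mark a GC box (GGGCGG) in Emx1, a GC box and the sequence ATCGAT in Cux2, the E-box CAGATG in Neurod2, and CAGATG and the cyclic AMP response element TGACGTCA in Neurod6, on either strand. Not every match is in capitals. GC boxes that begin 201 and 187 bases before the start of Neurod2 are in lower case, as are CAGGTG E-boxes of Emx1 and other E-boxes.
Emx1: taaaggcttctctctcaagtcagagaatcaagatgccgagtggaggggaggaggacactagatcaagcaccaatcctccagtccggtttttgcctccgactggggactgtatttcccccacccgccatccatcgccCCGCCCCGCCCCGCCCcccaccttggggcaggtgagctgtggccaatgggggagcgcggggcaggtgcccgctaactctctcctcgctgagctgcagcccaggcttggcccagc
Cux2: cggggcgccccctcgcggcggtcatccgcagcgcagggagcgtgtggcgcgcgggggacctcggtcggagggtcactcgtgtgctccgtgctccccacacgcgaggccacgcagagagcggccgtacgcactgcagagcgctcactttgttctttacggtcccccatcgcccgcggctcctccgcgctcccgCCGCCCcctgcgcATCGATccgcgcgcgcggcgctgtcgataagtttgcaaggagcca
Neurod2: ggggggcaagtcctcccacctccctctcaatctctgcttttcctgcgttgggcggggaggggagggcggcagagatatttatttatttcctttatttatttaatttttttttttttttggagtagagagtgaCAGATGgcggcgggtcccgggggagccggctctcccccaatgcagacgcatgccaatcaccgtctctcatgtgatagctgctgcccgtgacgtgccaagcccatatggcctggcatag
Neurod6: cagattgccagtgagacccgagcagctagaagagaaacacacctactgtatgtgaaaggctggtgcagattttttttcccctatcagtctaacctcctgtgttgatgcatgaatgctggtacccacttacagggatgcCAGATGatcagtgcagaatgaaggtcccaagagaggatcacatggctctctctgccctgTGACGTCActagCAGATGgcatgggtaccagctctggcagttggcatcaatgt

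The E-box is the kind of site that helix-loop-helix factors bind, and ATCGAT is the kind that CUX proteins bind. Among the 33469 RefSeq windows of the same 250 bases, 65.5% held any E-box (CANNTG), 14.0% held CAGATG, 4.86% the homeodomain sequence TAATTA, 0.75% ATCGAT, 1.59% TGACGTCA, 34.0% CCAAT and 30.5% GGGCGG, counted on both strands and with CAGATG also counted as CANNTG. Of the 8 genes with a window, 5 held any E-box, 2 held CAGATG (the 2 Neurod genes), 1 held TAATTA (Tbr1), 1 held ATCGAT (Cux2), 1 held TGACGTCA (Neurod6), 2 held CCAAT and 6 held GGGCGG. The ATCGAT of Cux2 began 45 bases before the start, and the TGACGTCA of Neurod6 began 53 bases before it. The RefSeq start used for Cux2 lies 10880 bases inside the annotated gene, so it is not the outermost one. These matches describe letters in a window and are not shown to be used in these cells.

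All 9 genes were expressed in every library. Levels between genes are compared as FPKM (fragments per kilobase of exon, scaled to the mapped fragments of the library), which takes gene length into account. Neurod6 stood highest with a mean of 104.6 FPKM over the 9 libraries (95.9 to 116), above 96.1% of the tested genes, followed by Neurod2 at 49.6 FPKM (39.9 to 56.3) and Cux2 at 30.1 FPKM (25.3 to 33.8). The ranges of these 3 did not overlap with each other. Tbr1 (21.4 FPKM, 19.6 to 23.3), Cux1 (21.4 FPKM, 20.5 to 23.1), Slc17a7 (20.6 FPKM, 16.1 to 23.5) and Bcl11b (18.9 FPKM, 14.4 to 22.8) overlapped over the libraries, so their order was not resolved. Emx1 (9.65 FPKM, 8.50 to 12.5) and Fezf2 (4.99 FPKM, 3.96 to 5.78) were lowest, and Fezf2 stood above only 40.2% of the tested genes. Estimated counts ran between 457 for Fezf2 and 15483 for Neurod6 in single libraries, so none of the 9 was near the limit of detection. Within a gene, values are given as CPM (counts scaled to library size, with TMM factors of 0.988 to 1.02), and the coefficient of variation over all 9 libraries was between 5.06% for Cux1 and 15.2% for Emx1.

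**Figure D1:**
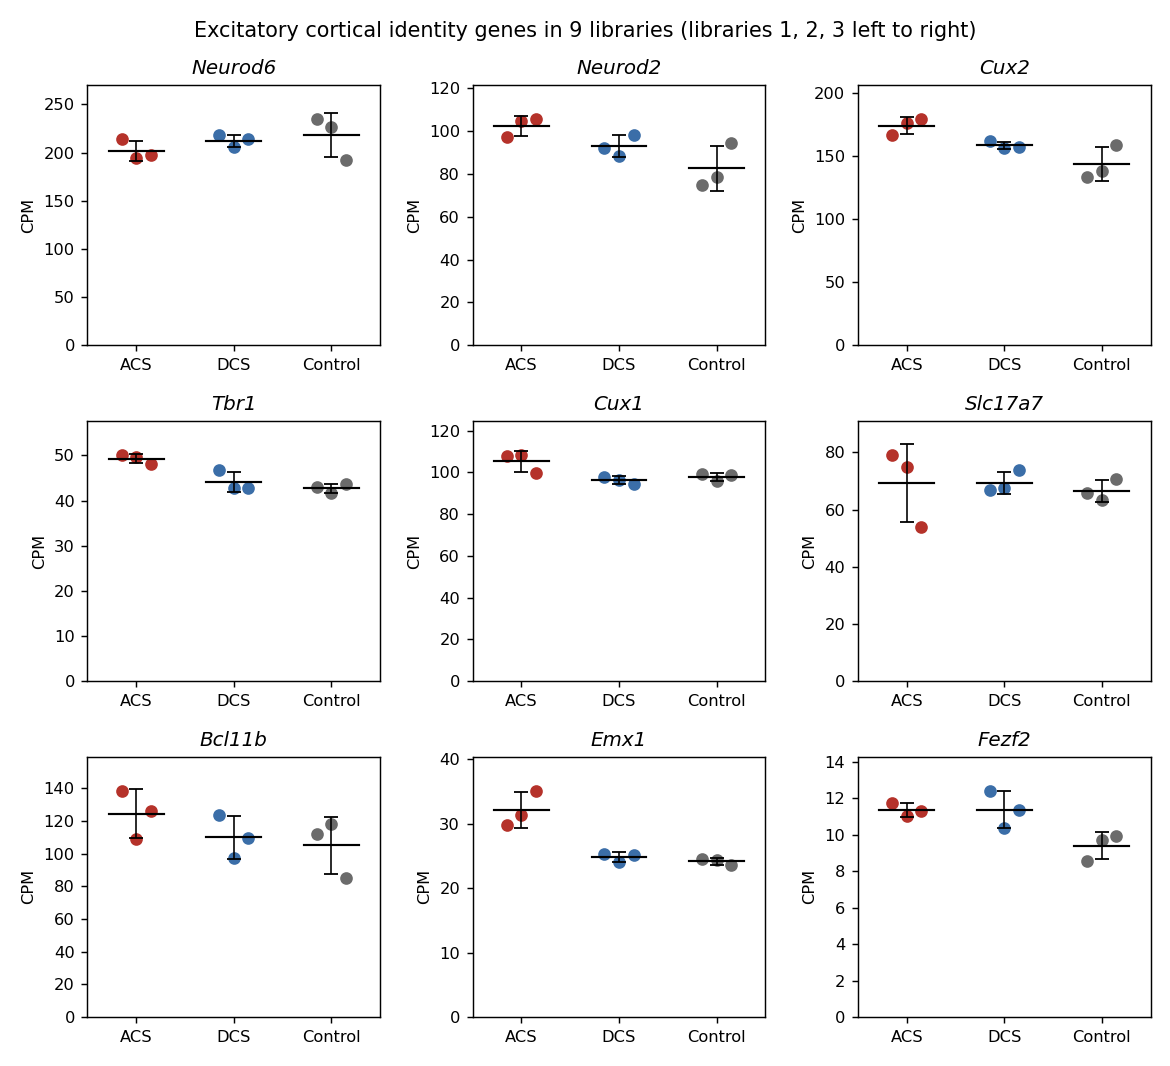
CPM of the 9 genes (vertical axis, from 0) in the ACS, DCS and Control groups, 1 point a library, with the group mean as a line and the SD as a bar (n = 3). The 3 ACS points of Emx1, between 29.8 and 35.2 CPM, all lie above the 6 other libraries, whereas 1 ACS library of Slc17a7 lies below all others at 53.9 CPM.

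The culture also held other cells of the cortex. Among markers of GABAergic interneurons all 12 listed genes passed the filter, with summed levels of 319 to 330 FPKM in ACS, 308 to 335 in DCS and 281 to 325 in Control libraries. Markers of astrocytes (9 of 9 tested) summed to 236 to 315, 279 to 286 and 286 to 296 FPKM in ACS, DCS and Control libraries, those of the oligodendrocyte lineage (8 of 8) to 187 to 204, 191 to 218 and 188 to 217, and those of microglia (8 of 8) to 53.6 to 55.3, 54.5 to 57.0 and 50.1 to 53.1. Endothelial and meningeal markers were nearly absent, with a sum of at most 1.68 FPKM in any library. Pan-neuronal genes were abundant (10 of 10 tested, Tubb3 at a mean of 1123 FPKM), as the label of cortical neurons requires, but the samples are mixed. In such bulk RNA, more cells of a type and more RNA per cell cannot be told apart.

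Emx1, the homeodomain gene of the dorsal telencephalon (ENSRNOG00000015493, chromosome 4, 116968000 to 116985551 on the plus strand in the table, which names no build), had 29.8, 31.4 and 35.2 CPM in ACS libraries 1, 2 and 3. It had 25.3, 24.0 and 25.1 CPM in the DCS libraries and 24.5, 24.4 and 23.6 CPM in the Control libraries. Every ACS library was therefore above every DCS and Control library, while the DCS and Control values overlapped. The mean was 32.1 ± 2.74 CPM under ACS and 24.1 ± 0.513 CPM in control neurons (SD, n = 3 each), a log2 change of 0.41 (standard error 0.07, 95% interval 0.25 to 0.57, quasi-likelihood test of edgeR, adjusted p = 0.0163). In this comparison 4.16% of all tested genes were called, 2.83% as higher and 1.33% as lower. The call was kept under the 9 other settings tried, including the edgeR fit of the 6 ACS and Control libraries alone (adjusted p = 0.0388). With single libraries left out, it was lost without ACS library 2 (adjusted p = 0.0554), ACS library 3 (0.05004), Control library 1 (0.0645) or Control library 2 (0.0791).

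Between ACS and DCS the log2 change of Emx1 was 0.37 (standard error 0.07, adjusted p = 0.0573 from edgeR), just short of the threshold. It passed with DESeq2 (adjusted p = 0.00113), with entries of at least 1 FPKM alone (0.0492) and with counts divided by 4 (0.0487). Under DCS its mean was 24.8 ± 0.729 CPM (SD, n = 3), and the log2 change over control neurons was 0.04 with a 95% interval of -0.12 to 0.20. The paralog Emx2 had 21.4 ± 1.59 CPM under ACS and 23.5 ± 1.91 CPM in control neurons (SD, n = 3 each), a log2 change of -0.13 (adjusted p = 0.522 from edgeR). Emx2 was picked out after its values were seen.

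Cux2 and Cux1 are paralogs of the cut homeodomain family and mark the upper layers. Cux2 (ENSRNOG00000001259, chromosome 12, 40018937 to 40219291, plus strand) had 167, 176 and 180 CPM in ACS libraries 1, 2 and 3, 162, 156 and 157 CPM in the DCS libraries and 134, 138 and 159 CPM in the Control libraries. The ACS values lay above all others, and Control library 3 fell among the DCS values. The mean was 174 ± 6.56 CPM under ACS and 144 ± 13.3 CPM in control neurons (SD, n = 3 each), a log2 change of 0.28 (standard error 0.06, 95% interval 0.14 to 0.42, adjusted p = 0.0417 from edgeR). The call was the weaker of the 2. It was kept without DCS library 3 (0.0493) or Control library 3 (0.00326) and was lost without any of the other 7 libraries: ACS 1 (0.0875), ACS 2 (0.131), ACS 3 (0.104), DCS 1 (0.0641), DCS 2 (0.0674), Control 1 (0.139) and Control 2 (0.156). It was also lost without a filter on low counts (0.0507), with limma (0.0994 and 0.126 at pseudocounts of 1 and 0.1) and with the 6 ACS and Control libraries alone (0.0759).

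Cux1 (ENSRNOG00000001424, chromosome 12, 23151180 to 23445074, plus strand) was the steadiest of the 9. Its values were 108, 108 and 99.5 CPM in the ACS libraries, 98.0, 96.5 and 94.4 CPM in the DCS libraries and 99.0, 95.8 and 98.8 CPM in the Control libraries. The lowest ACS library was only just above the highest Control library, and the log2 change was 0.11 (standard error 0.05, adjusted p = 0.222 from edgeR). Under DCS Cux2 had a log2 change of 0.14 and Cux1 one of -0.02 over control neurons, with adjusted p of 0.695 and 0.918 from edgeR. Fragments of Cux2 relative to Cux1, both per length, stood at a ratio of 1.367, 1.438 and 1.598 in the ACS libraries, 1.464, 1.435 and 1.477 in the DCS libraries and 1.198, 1.279 and 1.424 in the Control libraries. Control libraries 1 and 2 lay below every ACS and DCS library, and Control library 3 lay within the ACS range.

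**Figure D2:**
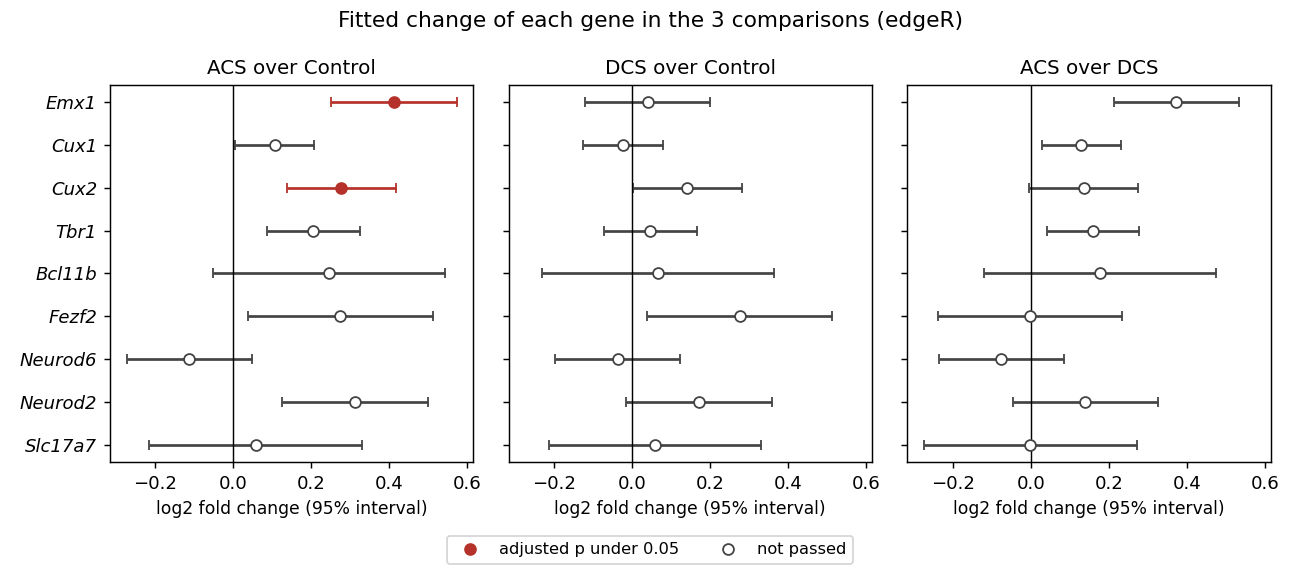
Fitted log2 change of each gene (points, with 95% intervals from the edgeR fit) for ACS over Control, DCS over Control and ACS over DCS. Filled points passed an adjusted p under 0.05, which were Emx1 at 0.41 and Cux2 at 0.28 in the first comparison and none in the others.

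The 3 deep layer factors had fitted changes between 0.21 and 0.27 under ACS, and none passed the test. Tbr1 (ENSRNOG00000005049, chromosome 3, 47677720 to 47685902, plus strand), a T-box factor of the deepest layer, had 50.1, 49.5 and 48.1 CPM in the ACS libraries, 46.7, 42.8 and 42.9 CPM in the DCS libraries and 42.9, 41.7 and 43.6 CPM in the Control libraries. All 3 ACS libraries were above the other 6. The log2 change over control neurons was 0.21 (standard error 0.05, adjusted p = 0.0609 from edgeR), and with DESeq2 it passed (adjusted p = 0.0195).

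Fezf2 (ENSRNOG00000009206, chromosome 15, 12827707 to 12831496, plus strand), a zinc finger factor that specifies neurons projecting below the cortex, had similar values under both currents. It had 11.8, 11.1 and 11.3 CPM in the ACS libraries, 12.4, 10.4 and 11.4 CPM in the DCS libraries and 8.54, 9.71 and 9.96 CPM in the Control libraries. Values under either current lay above all 3 Control values, and the fitted log2 changes were nearly equal, 0.27 under ACS (adjusted p = 0.175) and 0.28 under DCS (adjusted p = 0.692, both from edgeR). Its DCS and Control values did not overlap, which held for 1 of the 9 genes and for 11.1% of all tested genes (5.59% higher, 5.51% lower), so the count was at the background.

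Bcl11b (ENSRNOG00000005776, chromosome 6, 131834097 to 131926272, minus strand), also called Ctip2, is a zinc finger factor that acts downstream of Fezf2. Its libraries varied widely within each group, with 139, 109 and 126 CPM under ACS, 124, 97.2 and 110 CPM under DCS and 112, 118 and 85.3 CPM in control neurons. The coefficient of variation over all 9 libraries was 14.0%, close to that of Emx1, but here the groups overlapped in every comparison. The log2 change under ACS was 0.25 with a 95% interval of -0.05 to 0.54 (adjusted p = 0.329 from edgeR). Tbr1 relative to Bcl11b, per length, stood at 1.13 ± 0.141 under ACS, 1.14 ± 0.0928 under DCS and 1.18 ± 0.237 in control neurons (SD, n = 3 each).

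Neurod2 and Neurod6 had fitted changes of opposite sign under ACS, and neither passed. Neurod2 (ENSRNOG00000028417, chromosome 10, 86280892 to 86282693, minus strand) is typed as a pseudogene in the table and as protein coding in RefSeq, and the entry spans 1802 bases. It had 97.2, 105 and 106 CPM in the ACS libraries, 92.3, 88.4 and 98.3 CPM in the DCS libraries and 74.9, 78.4 and 94.4 CPM in the Control libraries. The ACS values were above all Control values but overlapped with DCS library 3. The log2 change was 0.31 (standard error 0.08, 95% interval 0.13 to 0.50, adjusted p = 0.0678 from edgeR). It passed with DESeq2 (adjusted p = 0.00471) and without Control library 3 (0.00579).

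Neurod6 (ENSRNOG00000026055, chromosome 4, 85911861 to 85915099, minus strand) had 214, 194 and 197 CPM in the ACS libraries, 218, 206 and 214 CPM in the DCS libraries and 235, 227 and 192 CPM in the Control libraries. Control library 3 was the lowest of all 9, so the groups overlapped. The log2 change under ACS was -0.11 with a 95% interval of -0.27 to 0.05 (adjusted p = 0.409 from edgeR), and without Control library 3 it was -0.20 and passed (0.0437). Neurod2 relative to Neurod6, per length, was 0.491, 0.581 and 0.579 in the ACS libraries, 0.457, 0.464 and 0.496 in the DCS libraries and 0.344, 0.373 and 0.530 in the Control libraries. Control libraries 1 and 2 had the lowest ratios, while Control library 3 lay within the ACS range.

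**Figure D3:**
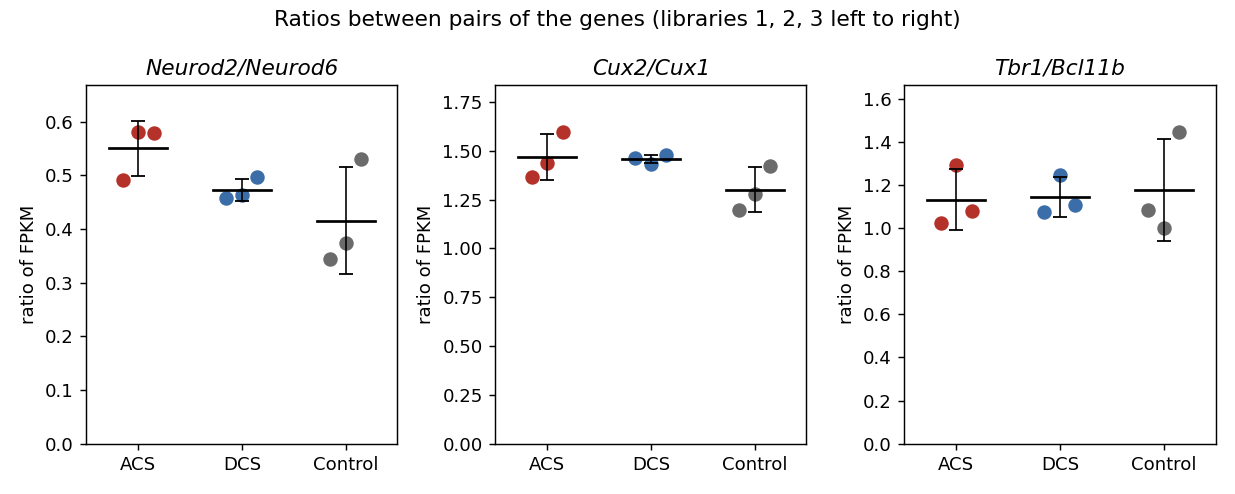
Ratio of FPKM between Neurod2 and Neurod6, Cux2 and Cux1, and Tbr1 and Bcl11b (vertical axes, from 0) in each library, with group mean and SD (n = 3). Control library 3 is the highest Control library in all 3 panels, at 0.530, 1.42 and 1.45.

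Slc17a7 (ENSRNOG00000020650, chromosome 1, 101161252 to 101173174, plus strand), which encodes the vesicular glutamate transporter of most mature cortical neurons, did not separate the groups. It had 79.2, 74.9 and 53.9 CPM under ACS, 66.8, 67.7 and 73.7 CPM under DCS and 65.7, 63.4 and 70.8 CPM in control neurons. ACS libraries 1 and 2 were the highest of the 9 and ACS library 3 the lowest, so the ACS mean of 69.3 ± 13.5 CPM had the widest spread. The log2 change over control neurons was 0.06 with a 95% interval of -0.21 to 0.33 (adjusted p = 0.828 from edgeR). ACS library 3 was in turn the highest of all 9 for Emx1, Cux2 and Neurod2. Slc17a6, which encodes the transporter VGLUT2 and was picked out after its values were seen, had 30.0 ± 1.48 CPM under ACS and 31.3 ± 2.94 CPM in control neurons (SD, n = 3 each), a log2 change of -0.06 (adjusted p = 0.724 from edgeR).

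Read together, the 9 genes had a median log2 change of 0.25 under ACS over control neurons, against -0.00287 over all tested genes, 0.06 under DCS over control neurons (all genes 0.00275) and 0.14 for ACS over DCS (all genes -0.00209). These 3 comparisons share their libraries, and the 9 genes were chosen with earlier results of these data known. Medians of other lists of neuronal genes are given below. In 6 of the 9 genes all ACS libraries lay above all Control libraries and in none below, where 14.0% of all tested genes lay above and 13.0% below (27.1% in all), and in 4 (Emx1, Cux1, Cux2 and Tbr1) all ACS libraries also lay above all DCS libraries, where 11.2% lay above and 10.2% below (21.4% in all). Between ACS and control neurons 6 of the 9 had an unadjusted p under 0.05, where 20.8% of all tested genes did. At an adjusted p under 0.05, ACS exceeded control neurons in 2 of the 9, where 4.16% of all tested genes were called (2.83% higher, 1.33% lower). Between DCS and control neurons the count was 0 by edgeR, limma and DESeq2. Of all tested genes edgeR called 0.0123% there (0.00614% in each direction), limma at most 0.0123% and DESeq2 0.233%. By edgeR 2 of the 9 had an unadjusted p under 0.05 (Cux2 and Fezf2), where 7.09% of all tested genes had one. Between ACS and DCS the count was 0 by edgeR and limma and 1 by DESeq2 (Emx1). Of all tested genes edgeR called 0.633% there (0.510% higher, 0.123% lower), limma at most 0.289% and DESeq2 4.05%. By edgeR 3 of the 9 had an unadjusted p under 0.05 (Emx1, Cux1 and Tbr1), where 13.9% of all tested genes had one.

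Without Control library 3 the number of the 9 called between ACS and control neurons was 4, with Emx1, Cux2 and Neurod2 higher and Neurod6 lower, in a fit that called 8.64% of all tested genes. It was 1 without ACS library 1, DCS library 1 or DCS library 2, in fits that called at most 2.75% of all tested genes. It was 0 without ACS library 2, ACS library 3, Control library 1 or Control library 2, in fits that called 1.06%, 1.83%, 0.982% and 0.831%. The share over all tested genes was thus also lower in these fits than the 4.16% called with all 9 libraries.

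**Figure D4:**
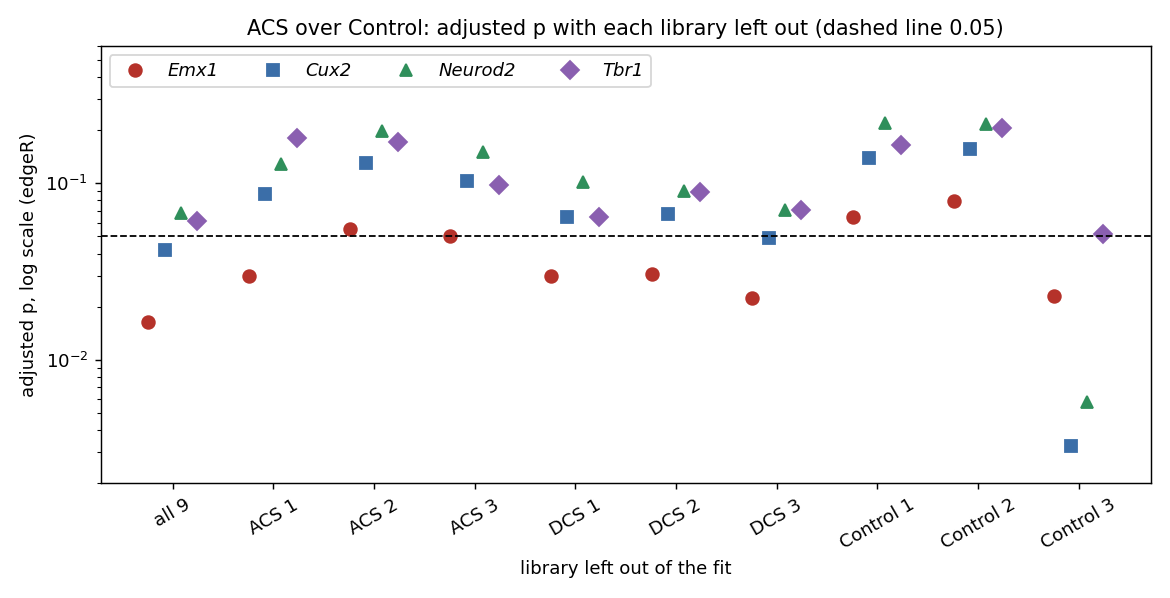
Adjusted p from edgeR (log scale) for ACS over Control of Emx1, Cux2, Neurod2 and Tbr1, with all 9 libraries and with each library left out. Emx1 lies above the dashed line at 0.05 without 4 of the libraries, by a narrow margin without ACS 3 (0.05004), and Cux2 without 7.

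Other genes of the same neurons and layers were read from lists that leave out the 9. Of 12 further upper layer genes none passed under ACS over control neurons, with a median log2 change of 0.02. Pou3f3, a POU factor, and Mef2c, a MADS-box factor, had log2 changes of 0.12 and 0.01. Of 13 further deep layer genes 1 was lower, Nfib, a nuclear factor I protein, at a log2 change of -0.19 (adjusted p = 0.0445 from edgeR), and none was higher (list median 0.11). Among the 8 tested genes of subplate and Cajal-Retzius cells 1 rose, Nr4a2, at 0.51 (adjusted p = 0.0163). Nr4a2 is a nuclear receptor that neurons also induce on activity.

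Of 12 pan-excitatory genes 2 rose under ACS, Zbtb18, a zinc finger repressor, at a log2 change of 0.22 (adjusted p = 0.0456 from edgeR) and Dpysl5, a regulator of growth cones, at 0.33 (adjusted p = 0.0104), with a list median of 0.02. Dpysl5 had 802 ± 35.8 CPM under ACS, 788 ± 20.7 CPM under DCS and 640 ± 38.0 CPM in control neurons (SD, n = 3 each), and its log2 change under DCS was 0.30 (adjusted p = 0.510). None of 10 patterning genes of the dorsal telencephalon passed, with a list median of 0.13 and log2 changes of 0.11 for Meis2 and 0.23 for Nr2f1. None of the 7 tested genes of intermediate progenitors and new neurons passed (list median 0.04).

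**Figure D5:**
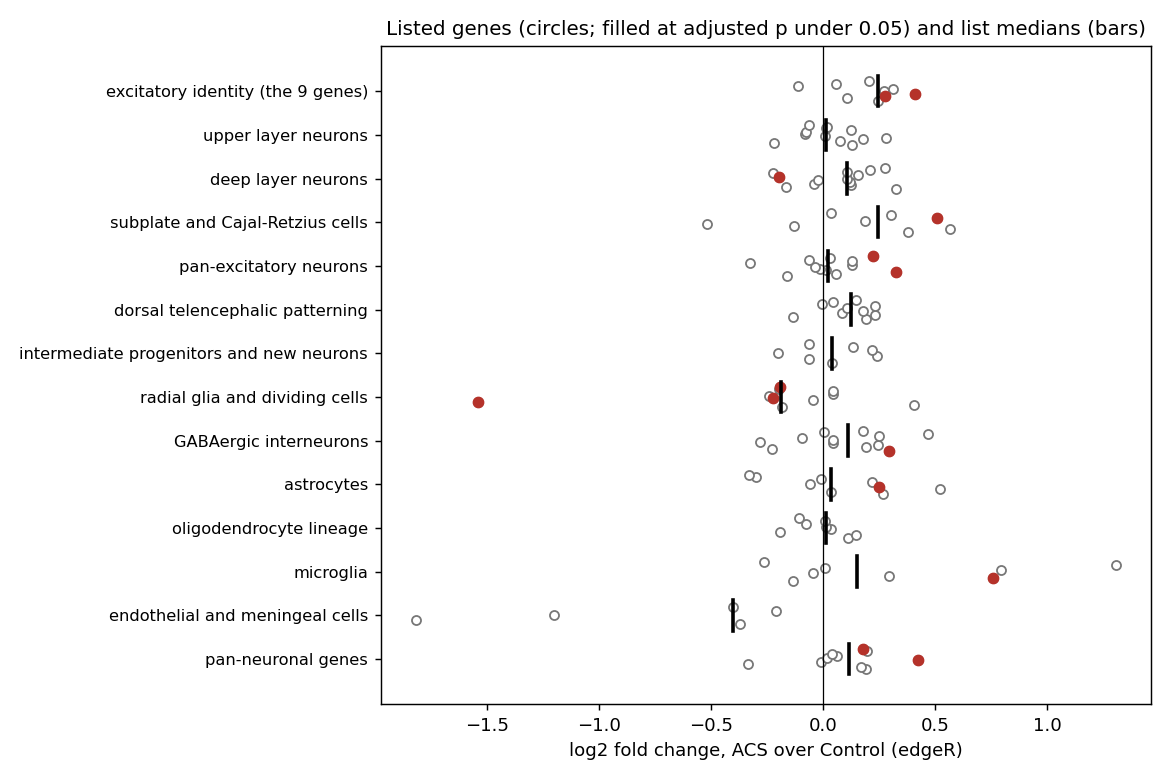
Log2 change of ACS over Control for each tested gene of 14 lists (circles, filled where the adjusted p was under 0.05), with the median of each list as a bar. The median of the 9 excitatory identity genes was 0.25, those of the further upper layer and pan-excitatory genes were both 0.02, and the immediate early genes, at a median of 1.84, are not drawn.

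Some markers of other cells also passed. Under ACS over control neurons the 12 interneuron genes had a median log2 change of 0.11, 1 of 9 astrocyte genes rose (Gfap at a log2 change of 0.25, list median 0.04), 1 of 8 microglial genes rose (C1qa at 0.76, list median 0.15) and none of 8 oligodendrocyte genes passed (list median 0.01). Of 10 genes of radial glia and dividing cells, 3 fell, Hes5 by 1.54, Mki67 by 0.22 and Vim by 0.19 on the log2 scale. The list median was -0.19, and 3 of the 10 changes were above 0. Summed levels were 870 to 964 FPKM in ACS, 950 to 983 FPKM in DCS and 996 to 1059 FPKM in Control libraries. The sums under either current thus lay below all Control sums. The largest part came from Fabp7 (mean 612 FPKM), which did not pass (adjusted p = 0.0896 from edgeR). Of 10 pan-neuronal genes 2 rose, Rbfox3 at 0.43 and Uchl1 at 0.18 (list median 0.12). Their list summed to 3669 to 3857 FPKM in ACS, 3446 to 3781 FPKM in DCS and 3443 to 3515 FPKM in Control libraries. The DCS sums overlapped with those of both other groups. All 12 immediate early genes rose, with a median log2 change of 1.84. The part of these shifts in the values of the 9 genes was not tested.

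By a rule that compared each gene with 10490 others over the 9 libraries, the genes with the profile most like that of Emx1 were Col5a1, a fibrillar collagen, Rbfox3, the splicing regulator NeuN of mature neurons, and Cyp1b1, a cytochrome P450. Their log2 CPM, centred on the mean of each gene, differed from that of Emx1 by a mean of 0.0455, 0.0476 and 0.0493 per library, where Emx1 itself deviated from its own mean by 0.173. Those most like Cux2 were Cacnb3, a calcium channel subunit (0.0203), Sncb, a synuclein (0.0252), and Tlcd3b (0.0274), where Cux2 deviated from its own mean by 0.101. Their log2 changes under ACS over control neurons were 0.44, 0.43 and 0.41 for the first 3 and 0.25, 0.32 and 0.25 for the others. The rule chose them on these same libraries, so changes close to those of Emx1 and Cux2 follow from the choice.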

How the data were processed

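Polyadenylated RNA of 9 libraries was sequenced. The authors trimmed the reads (fastp in the methods, cutadapt 1.9 in their processing notes), aligned them with HISAT2 2.0.4 to a rat genome whose build the table does not name, and quantified them with StringTie 1.3.4d. The deposited FPKM values are per kilobase of exon, scaled to mapped fragments. The estimated counts that the authors deposited beside them are whole numbers and sum to 49039412 to 68690760 per library. Of the counts from 1 to 15, 34.1% are multiples of 4 (20% if evenly spread), so a fragment may add more than 1 to a count. The size of such a step was not tested, and counts divided by 4 were an alternative.

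Counts were scaled by TMM, filtered by filterByExpr (minimum count 10, minimum total 15) and tested with edgeR 4.0.16 in 1 quasi-likelihood fit over the 9 libraries, with Benjamini-Hochberg adjustment over 16284 genes and a call at an adjusted p under 0.05. The scripts were tested on simulated data with set changes between ACS and Control. Of set log2 changes of 0.25, 0.5, 1 and 2, 2%, 34%, 54% and 84% were called. The changed genes were drawn from all tested genes, not only from genes at the levels of the 9. DESeq2 1.42.0, limma 3.58.1 on log2(FPKM + 1) and log2(FPKM + 0.1), other filters and scalings, the replicate block and leaving out each library were alternatives.

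The 9 genes and the 14 further lists were chosen with earlier results of these data known. All 9 are named. Of the other lists, genes that passed any comparison or else at most 3 of the highest FPKM are named (some of these genes are not reported here), and for each of the 9 that was called the 3 genes with the most similar profile (mean CPM of at least 5, no clone or locus names). Of the listed symbols, Trp73, Insm1, Sox4, Pecam1 and Col1a2 matched no entry and were not analysed here.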

Additional observations from a re-analysis of the deposited data

How the results depend on the processing

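Of the 9 genes, 2 were called between ACS and control neurons. Beside 4.16% of all tested genes called there, the count was 4 with DESeq2 (10.1% of all tested genes), 1 without a filter on low counts (2.49%), 1 with limma at either pseudocount (2.69% and 1.57%) and 1 with the 6 libraries of the comparison alone (2.82%), and it ranged from 0 to 4 when single libraries were left out. It stayed at 2 with median-of-ratios scaling (4.16% of all tested genes called), a minimum mean of 1 FPKM (6.19%), or counts divided by 4 (5.51%). Between ACS and DCS it was 0, beside 0.633% of all tested genes called there. It was 1 (Emx1) with DESeq2 (4.05%), with a minimum of 1 FPKM (0.935%) and with counts divided by 4 (0.85%). Between DCS and control neurons it was 0 in every alternative, where at most 0.284% of all tested genes were called. The replicate number was also used as a block, which shares only a number between groups (correlations of same-numbered deviations of -0.0532 to 0.0631). The count between ACS and control neurons was then 3 instead of 2, with 2.92% of all tested genes called. Neurod2 was added (log2 change 0.32, adjusted p = 0.0438 from edgeR). The counts were 0 between ACS and DCS (0.362% of all tested genes called) and between DCS and control neurons (0.00614%).

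Signs turned only for changes near 0, when 1 library was left out. Slc17a7 then ranged from -0.0490 to 0.209 (ACS over Control) and from -0.109 to 0.149 (ACS over DCS) on the log2 scale, Fezf2 from -0.0654 to 0.0643 (ACS over DCS), Bcl11b from -0.0628 to 0.161 and Neurod6 from -0.120 to 0.0200 (both DCS over Control). Between ACS and control neurons, 6 of the 9 changes had an unadjusted p under 0.05 and 2 passed after adjustment, with 3 libraries a group.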
